A study of Mus musculus with 142 samples.

Results

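The genes to the right of Morc1 lie on chromosome 16 (mm10) between the end of the Dppa2/4 domain and a late replicating region, and none of the deletions of the study removes any of their sequence. The members were the 10 windows of 50 kb that start with base 48700001 and end with Myh15, out of 49264 windows with RT values. The windows were chosen by position and not by their values. They are numbered here from 1, next to the domain, to 10. In GENCODE vM21 they hold Trat1 (48730774 to 48772021, minus strand, windows 1 and 2), Retnla (48842551 to 48844461, plus strand, window 3), Retnlg (48872621 to 48874496, plus strand, window 4), Dzip3 (48924232 to 48994165, minus strand, windows 5 and 6) and Myh15 (49057486 to 49199104, plus strand, windows 8 to 10). The annotation places 2 further protein-coding genes in the interval, Retnlb (48816856 to 48818892, plus strand), which shares window 3 with Retnla, and Cip2a (48994185 to 49019709, plus strand, windows 6 and 7).

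Mammalian chromosomes replicate in a fixed order in which large domains are copied together, and domains that are transcribed and lie in the nuclear interior mostly replicate early in S phase. Early replication control elements (ERCEs) are stretches of DNA that a domain needs to replicate early, and those of the Dppa2/4 domain contain sites bound together by Oct4, Sox2 and Nanog (OSN sites), the master transcription factors of pluripotent cells. Between an early and a late domain lies a timing transition, in which replication time changes gradually because forks leaving the early domain travel through it. The genes studied here sit in such a transition. Most of them are known from other tissues. Trat1 encodes an adaptor of the T cell receptor complex, and Retnla, Retnlb and Retnlg encode secreted resistin-like proteins of macrophages, gut and myeloid cells. Dzip3 encodes an RNA-binding ubiquitin ligase, Cip2a an inhibitor of the phosphatase PP2A, and Myh15 a myosin heavy chain.

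RT was measured by E/L Repli-seq, in which newly made DNA is labelled with BrdU (100 µM, 2 h) and sequenced from sorted early and late S-phase cells, and values are log2(E/L), positive where replication is early. All samples were F121-9 mESCs, a line from a cross of the subspecies musculus and castaneus (CAST), grown in 2i and LIF, in which reads are told apart by their SNPs, and each sample was a CRISPR-derived clone with deletions on 1 allele or on both. The 66 libraries came from 53 clones of 26 cell lines and gave 30 deletion alleles, 25 on the musculus allele and 5 on the CAST allele, of which 10 were seen in 1 clone. The values are ratios, so the depth behind a window is unknown, and the cell identity could not be checked on marker genes because RT holds no expression. Letters A, B and C stand for the whole ERCE, OSN with digits for its OSN sites, TSS for its transcription start site and Z for an OSN site beside A that lies outside the ERCEs. ∆CL20k removes the left part of C and keeps its 3 OSN sites, ∆CR11.8k removes COSN3, COSN2 and the C start site and keeps COSN1, ∆CR13.4k and ∆CR14.6k remove all 3 OSN sites, and ∆COSN1.2.8k is a larger deletion at COSN1 (coordinates not used here). ∆A.COSN123, ∆A.B.COSN123 and similar lines were built in steps on lines that already carried other deletions, so their clones share ancestry, and ∆COSN123 itself is 1 clone with 4 cultures, which was counted as 1 replicate. In the 8 clones with deletions on both alleles the control was the mean curve of all WT alleles (the aggregate WT curve), and otherwise it was the WT allele of the same clone.

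The deletion ends nearest to these genes were set by the guides at ERCE C. They are shown because all distances below start there. Deletion of C (48581334 to 48620351) left 110.4 kb to the nearest base of Trat1, and deletion of COSN1 (48613172 to 48614742) left 116.0 kb. The guides are given 5′ to 3′ from the study's guide list, with the 20 target bases in lower case and the PAM of the mm10 genome in capitals. They cut at COSN3, COSN2 and COSN1 in this order, then at the right end of ∆CR14.6k (C-RIGHT-G2) and at that of C (C-RIGHT-G3).
C-OSN-3-G1: cagcctgttgaattgacagaAGG
C-OSN-3-G2: tctcttccctgtgccgtaagTGG
C-OSN-2-G1: agagtttgtagaatgctccgGGG
C-OSN-2-G2: acaagcatggtagggcctaaAGG
C-OSN-1-G1: gagtaactcaggcaaaacgtTGG
C-OSN-1-G2: ggaccggccaacctcccttaAGG
C-RIGHT-G2: gatggttagctattgtgaacAGG
C-RIGHT-G3: ggaagatatccacctattcgTGG
Guide C-OSN-3-G1 matched chr16:48606304-48606326 on the plus strand and C-OSN-1-G2 chr16:48614737-48614759 on the minus strand. The rightmost guide, C-RIGHT-G3, matched chr16:48620346-48620368 on the minus strand, inside Morc1, which ends at 48630900. Distances are given from base 48620351, the right end of ERCE C, to the centre of a window.

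On WT alleles, RT fell steadily from Trat1 to Myh15. Trat1 replicated early, with a lowest, median and highest RT of 0.39, 0.73 and 1.13 (mean 0.74 ± 0.16, SD, n = 44 alleles). At Retnla these values were 0.24, 0.52 and 0.93 and at Retnlg 0.02, 0.40 and 0.85. Dzip3 lay in mid S phase, at −0.23, 0.13 and 0.63. All WT alleles were late at Myh15, at −1.16, −0.64 and −0.34 (mean −0.64 ± 0.17, SD, n = 44). The range of Myh15 did not overlap that of Dzip3, whereas neighbours from Trat1 to Dzip3 had overlapping ranges. The mean of window 1 was 0.80 and that of window 10 was −0.91, a fall of 1.71 ± 0.29 (SD, n = 44) that every WT allele showed (1.21 to 2.35). The domain itself, taken as the 8 windows from base 48200001 that hold Dppa4, Dppa2 and most of Morc1, had a mean of 1.00 on the same alleles.

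Nearly all WT alleles are CAST, while most deletions are on musculus. Only 2 WT alleles were musculus, and their RT was 0.65 and 0.71 at Trat1, 0.42 and 0.45 at Retnla, 0.01 and 0.08 at Dzip3 and −0.69 and −0.68 at Myh15. All of these lay inside the range of the 42 CAST alleles. The difference of musculus minus CAST was −0.07 on average over the 10 windows (−0.15 to 0.00), and limma called 0 of them (0 at an unadjusted p under 0.05, adjusted p 0.63 to 1.00), against 10.6% of all windows in either direction. The 95% intervals of the single windows ran from −0.41 to 0.34, so a strain difference within these bounds was not detectable with 2 alleles.

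**Figure D1:**
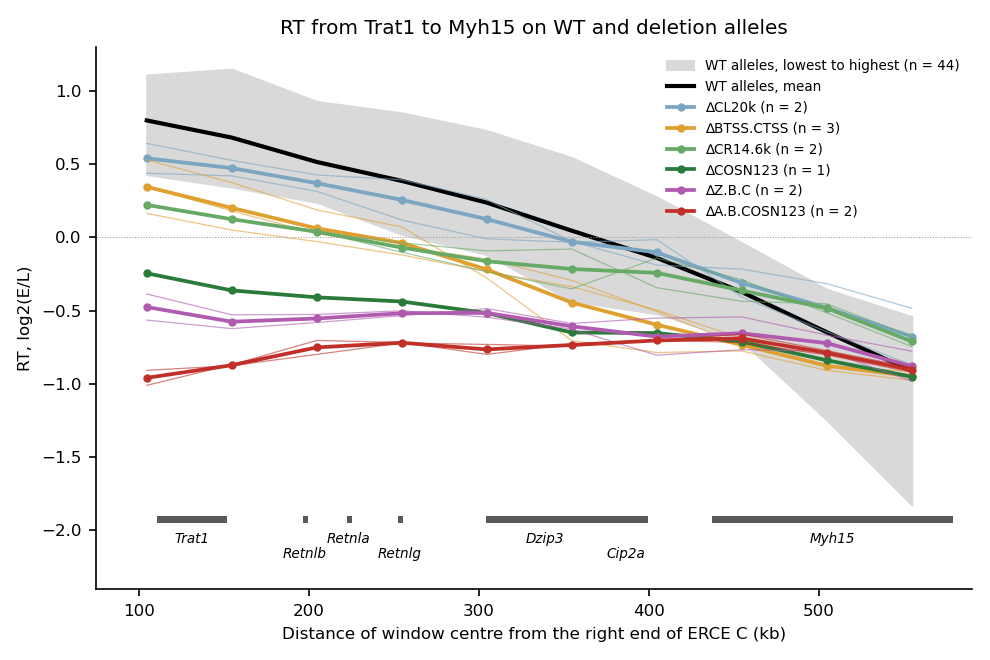
RT, log2(E/L), by distance of the window centre from the right end of ERCE C (kb). The grey band spans the lowest to highest of 44 WT alleles and the black line is their mean; coloured lines are means of the clones of 6 deletions, thin lines single clones, and bars below mark the genes. ∆A.B.COSN123 is flat and late over the interval, and all curves come together at Myh15.

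The question asked of each deletion was how far its delay reached into these genes. Of the 30 deletion alleles, 23 replicated later than their control in at least 1 of the 10 windows (limma, adjusted p under 0.05). In all, 141 of the 300 combinations of window and deletion allele were called later (47%, against 9.95% of all windows in the table). No window of the interval was called earlier for any deletion, where 0% to 18.6% of all windows were, depending on the deletion. With the 2 WT musculus alleles as control, 13 of the 22 called deletion alleles on musculus lost all calls, namely ∆COSN123, ∆CR13.4k, ∆CR14.6k, ∆COSN12, ∆COSN1.2.8k, ∆CTSS, ∆AOSN.COSN12, ∆A.COSN12, ∆AOSN.COSN123, ∆Z.AOSN.COSN123, ∆BOSN1.COSN123, ∆A.BOSN1.COSN123 and ∆BTSS.CTSS. The share of all windows called later differed greatly between deletions, from 0.0107% to 28.2% with a median of 9.36%, so counts are given with the share of the same deletion. The authors smoothed the values over 300 kb, so neighbouring windows share data and a window near C also draws on the domain.

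The number of deletion alleles called later dropped with distance from ERCE C. It was 21 of 30 at 104.6 kb and 22 at 154.6 kb, the windows of Trat1, and 21 at 204.6 kb and 20 at 254.6 kb, the windows of Retnla and Retnlg. The windows of Dzip3 were called in 19 (304.6 kb) and 15 (354.6 kb). Window 7, which holds the end of Cip2a, was called in 12, and the windows of Myh15 in 7, 4 and 0. The size of the delay dropped in parallel. The median ∆RT over the 30 deletion alleles was −0.77 in window 1, −0.61 in window 3, −0.49 in window 5, −0.29 in window 7, −0.08 in window 9 and 0.00 in window 10. Among the 10 windows, the largest delay of a deletion lay in window 1 for 9 of the 23 and in window 2 for 10. WT alleles are themselves later further from C, with a mean RT of 0.80 in window 1 and −0.91 in window 10. In these drops, distance from C and the WT level cannot be told apart.

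The reach of a delay was read as the distance from ERCE C to the far end of the last window called, even where nearer windows were not called. It was 529.6 kb for 4 deletion alleles, 479.6 kb for 3 and 429.6 kb for 5. Of these 5, ∆Z.B.C, ∆A.COSN123 and ∆COSN12 were called in all windows up to window 7, and ∆CR11.8k and ∆Z.AOSN.COSN123 in 6 of them. The reach was 379.6 kb for 3, ∆COSN123, ∆CR13.4k and ∆AOSN.COSN12, and 329.6 kb for 5. Among the latter, ∆CTSS on musculus was called in window 5 alone (5.45% of all windows), so its value is not a continuous delay from C. The shortest were 279.6 kb for 2, ∆A.BOSN1.COSN123 and ∆A.COSN12, and 179.6 kb for ∆COSN1.2.8k. A call depends on the number of clones as well as on the delay, so the mean over all 10 windows was taken too. It was lowest in ∆A.B.COSN123 (−1.02 and −0.84 in its clones, mean −0.93), followed by ∆BOSN12.COSN123 (−0.77), ∆A.BOSN12.COSN123 (−0.76), ∆Z.B.C (−0.73), ∆AOSN.B.COSN123 (−0.67), ∆BOSN1.COSN123 (−0.63), ∆A.BOSN12.BTSS.COSN123 (−0.61), ∆AOSN.BOSN12.COSN123 (−0.59) and ∆COSN123 (−0.58). The order depended on the control, since ∆AOSN.BOSN12.COSN123 was the lowest with the aggregate WT curve (−0.89, against −0.85 for ∆A.B.COSN123) and with WT musculus alleles (−0.83 against −0.78). With the exception of ∆COSN123, all of these lack at least 1 OSN site of B beside those of C. A middle range held ∆CR11.8k (−0.52), ∆ATSS.BTSS.CTSS (−0.49), ∆A.BOSN1.COSN123 (−0.44), ∆CR13.4k (−0.41), ∆AOSN.COSN12, ∆A.COSN123 and ∆AOSN.COSN123 (−0.40 each), ∆BTSS.CTSS (−0.39), ∆COSN12 (−0.38), ∆Z.AOSN.COSN123 (−0.37), ∆BTSS on CAST (−0.36), ∆CR14.6k (−0.33) and ∆A.COSN12 (−0.22). The smallest delays were those of ∆COSN1.2.8k (−0.18), ∆CTSS on musculus (−0.17), ∆BTSS on musculus (−0.13), ∆ATSS on CAST (−0.08) and ∆CL20k (−0.05). ∆B on CAST (0.02), ∆COSN1 (0.02) and ∆CTSS on CAST (0.10) had means above 0. That of ∆COSN1 was −0.09 with the aggregate WT curve and −0.03 with WT musculus alleles, and that of ∆B was −0.02 when curves were centred on chromosome 16, while that of ∆CL20k was 0.02 with WT musculus alleles.

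**Figure D2:**
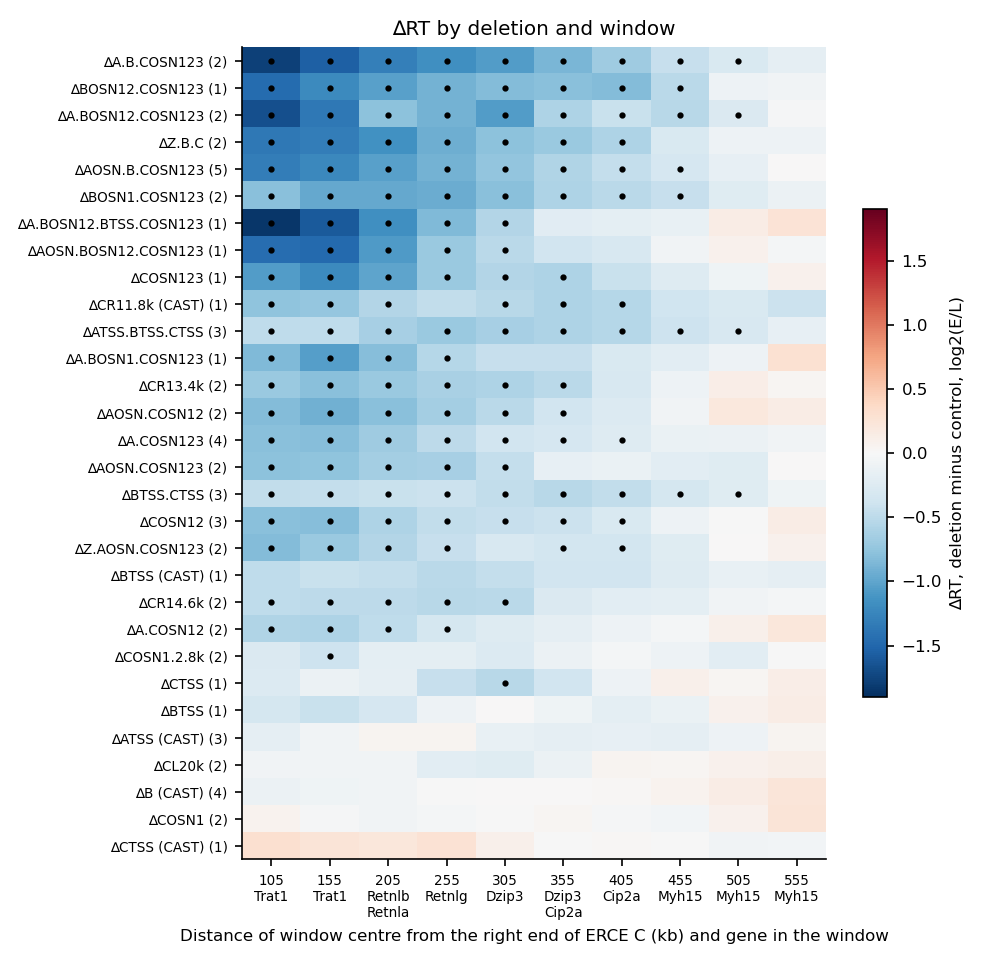
∆RT, deletion minus control allele in log2(E/L), for 30 deletion alleles (rows, number of clones in brackets, ordered by the mean of the 10 windows) by distance of the window centre from the right end of ERCE C (kb). Dots mark windows called later at an adjusted p under 0.05 (limma); they thin out from 21 of 30 in window 1 to 0 in window 10.

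Trat1, the nearest gene, was called later in both of its windows on 21 of the 30 deletion alleles. These 21 held all 15 deletion alleles that lack the 3 OSN sites of C, with a ∆RT at Trat1 of −1.72 to −0.49. They also held the 3 that lack COSN1 and COSN2 but keep COSN3, ∆COSN12, ∆AOSN.COSN12 and ∆A.COSN12, at −0.87 to −0.58. Among the 12 others, 3 were called in both Trat1 windows, namely ∆CR11.8k, ∆BTSS.CTSS and ∆ATSS.BTSS.CTSS.

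In ∆COSN123, the single clone with just the 3 OSN sites of C deleted, the RT of Trat1 was −0.30 on the deletion allele and 0.83 on the WT allele. Its 4 cultures gave a ∆RT of −1.38, −0.79, −0.998 and −1.37, all below every clone of ∆CL20k, ∆COSN1, ∆COSN1.2.8k and ∆CTSS. The mean ∆RT was −1.13 (limma, higher adjusted p of the 2 windows 4.8e-05). The delay was called in 6 of the 10 windows, against 2.77% of all windows, and reached from Trat1 to the second window of Dzip3, 379.6 kb from C. With the 2 WT musculus alleles as control 0 windows were called, while the mean of the 10 windows was −0.57 in place of −0.58. Where the same sites were deleted in 1 piece, the values at Trat1 were nearer to 0, with no test of the difference. In ∆CR13.4k, the deletion alleles had an RT of 0.00 and 0.35 where their WT alleles had 0.85 and 0.99, a ∆RT of −0.74 (6 windows called, 10.1% of all). In ∆CR14.6k, both deletion alleles had 0.17 against WT alleles of 0.60 and 0.73, a ∆RT of −0.49 (5 windows called, 8.6% of all). These 5 calls were lost without clone 53, and with WT musculus alleles as control none was called and the mean of the 10 windows was −0.18 in place of −0.33. The deletion alleles of ∆CR13.4k and ∆CR14.6k thus stayed early to mid at Trat1, while that of ∆COSN123 was late.

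Deletions that spare at least 1 OSN site of C gave mixed values at Trat1. In ∆COSN12, the 3 clones had an RT of 0.22, 0.30 and 0.17 on the deletion allele and 1.11, 1.13 and 0.87 on the WT allele. The ∆RT was −0.81 ± 0.09 (SD, n = 3), with 7 windows called (15.1% of all). The WT alleles of ∆COSN12 and of ∆CR13.4k all lay above the mean of all WT alleles at Trat1, 0.74, and the part of this in their ∆RT was not tested. Set against the aggregate WT curve, the mean ∆RT over the 10 windows was −0.21 in place of −0.38 for ∆COSN12 and −0.19 in place of −0.41 for ∆CR13.4k. ∆CR11.8k, which keeps COSN1 and lies on CAST in 1 clone, had −0.04 against 0.71 on its musculus allele, a ∆RT of −0.75, with 6 windows called (3.94% of all). None of these 6 was called when WT CAST alleles served as control, although the mean of the 10 windows was −0.60 with that control and −0.52 with its own.

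Deletion of COSN1 or of the left part of C left Trat1 close to its control. In ∆COSN1 the 2 clones had a ∆RT of −0.04 and 0.08, and in ∆CL20k −0.10 and −0.03. No window was called for either deletion, against 9.51% and 8.46% of all windows. ∆COSN1.2.8k had −0.34 and −0.33 and was called in window 2 alone (10.2% of all), a call lost without either clone. The CAST allele of its clone 18 has no values on chromosome 16, so the aggregate WT curve was the control of that clone. ∆CTSS on musculus had −0.18 in 1 clone and was called only in window 5 (5.45% of all).

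When ERCE B or both of its OSN sites were deleted with those of C, Trat1 was late. In ∆Z.B.C the deletion alleles had an RT of −0.59 and −0.46 and their WT alleles 0.89 and 0.74, a ∆RT of −1.34, with 7 windows called (9.95% of all). ∆BOSN12.COSN123 had −0.76 against 0.57 in 1 clone, a ∆RT of −1.33, with 8 windows called (9.12% of all). In ∆BOSN1.COSN123, which keeps BOSN2, the deletion alleles were nearer to mid S phase, at −0.12 and −0.09, and the ∆RT was −0.88, with 8 windows called (19.1% of all), or 5 without clone C4. The Trat1 levels of ∆BOSN1.COSN123 did not overlap those of ∆Z.B.C.

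With A deleted beside the C sites and B intact, Trat1 was mid to late. The 4 clones of ∆A.COSN123 had an RT of −0.11, −0.44, −0.17 and −0.21, a ∆RT of −0.80 ± 0.04 (SD, n = 4), with 7 windows called (13.7% of all). ∆AOSN.COSN123 had −0.04 and −0.18, a ∆RT of −0.77, with 5 windows called (10.4% of all). ∆Z.AOSN.COSN123 had 0.07 and −0.06, again a ∆RT of −0.77, with 6 windows called (9.2% of all), but 2 without clone A9 and 4 without clone B4. The RT level of each clone of ∆A.COSN123 was later than both of ∆Z.AOSN.COSN123, and the levels of ∆AOSN.COSN123 overlapped with those of the others. The WT alleles differed too, at 0.39 to 0.71 in ∆A.COSN123 and 0.94 and 0.61 in ∆Z.AOSN.COSN123. The ∆RT of the clones overlapped, at −0.83 to −0.74 and at −0.87 and −0.66. Where COSN3 was kept, ∆AOSN.COSN12 had −0.18 and 0.15 (6 windows called, 13% of all) and ∆A.COSN12 had 0.27 and 0.20 (4 windows called, 8.33% of all). In ∆AOSN.COSN12 3 windows were called without clone F3, and in ∆A.COSN12 2 without clone A3 and 1 without clone D6.

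The latest Trat1 alleles carried deletions at all 3 ERCEs. ∆A.BOSN12.BTSS.COSN123 had an RT of −0.98 against 0.74 in 1 clone, a ∆RT of −1.72, with 5 windows called (6.08% of all). ∆A.B.COSN123 had −0.94 and −0.89, a ∆RT of −1.66, with 9 windows called (8.22% of all). ∆A.BOSN12.COSN123 had −0.86 and −0.93, a ∆RT of −1.52, with 9 windows called (12.1% of all). No WT allele was below 0.39 at this gene. In ∆AOSN.BOSN12.COSN123 the single clone had −0.98, a ∆RT of −1.46, with 5 windows called (10.9% of all). The 5 clones of ∆AOSN.B.COSN123 spread more widely, from −0.66 to −0.29, and their ∆RT was −1.27 ± 0.29 (SD, n = 5), with 8 windows called (18.1% of all). ∆A.BOSN1.COSN123 stayed nearer to mid S phase, at −0.11, with a ∆RT of −0.94 and 4 windows called (4.14% of all).

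**Figure D3:**
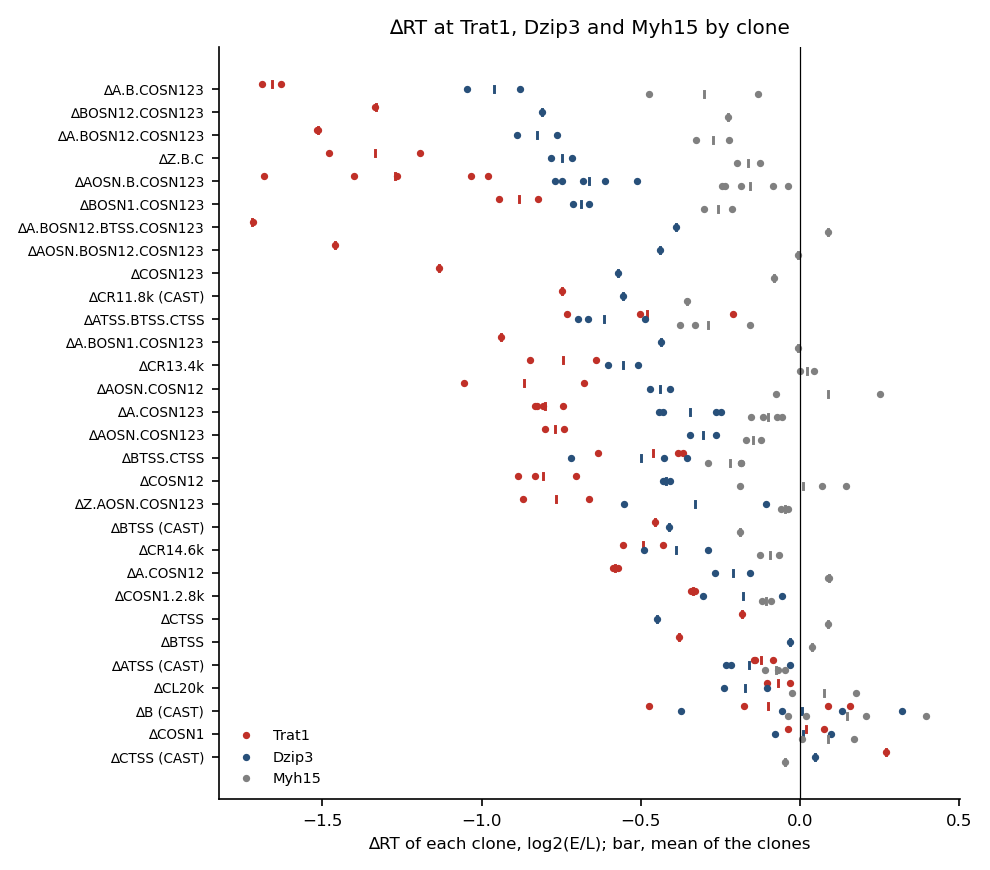
∆RT, log2(E/L), of each clone (points) and the mean of the clones (bars) at Trat1, Dzip3 and Myh15 for 30 deletion alleles. In ∆A.B.COSN123 at the top, Trat1 points lie furthest to the left, Dzip3 points between, and Myh15 points nearest to 0. The order differs in some other rows, such as ∆ATSS.BTSS.CTSS and ∆BTSS.CTSS, where the mean at Dzip3 lies left of that at Trat1.

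The resistin-like genes followed Trat1 at a smaller size. Window 3, with Retnla and Retnlb, was called later on 21 deletion alleles and window 4, with Retnlg, on 20. At Retnla the median ∆RT was −0.61 (−1.30 to 0.22) and at Retnlg −0.51 (−1.17 to 0.28). The 2 clones of ∆A.B.COSN123 had an RT of −0.70 and −0.80 at Retnla, where the lowest WT allele was at 0.24. ∆COSN123 had −0.41 at Retnla and −0.44 at Retnlg, with a ∆RT of −0.997 and −0.70 (limma, adjusted p 1.5e-04 and 0.0061). In ∆CR14.6k the delay hardly changed from gene to gene, with −0.49 at Trat1, −0.49 at Retnla and −0.52 at Retnlg. Windows 1 to 4, from Trat1 to Retnlg, were all called in each of the 15 deletion alleles without the 3 OSN sites of C.

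Dzip3 was called later in both windows on 14 deletion alleles and in at least 1 on 20. Its median ∆RT was −0.43 (−0.96 to 0.05). The clones of ∆A.B.COSN123 had an RT of −0.76 and −0.74, a ∆RT of −0.96, and those of ∆A.BOSN12.COSN123 −0.71 and −0.67, a ∆RT of −0.83. These 4 values lay below the latest WT allele, −0.23. ∆BOSN12.COSN123 had −0.74, a ∆RT of −0.81, and ∆Z.B.C −0.54 and −0.58, a ∆RT of −0.75. The alleles with only the A and C sites deleted were less delayed, with −0.34 in ∆A.COSN123 and −0.30 in ∆AOSN.COSN123, and the latter was called in 1 of the 2 windows. ∆A.BOSN12.BTSS.COSN123, with the largest delay at Trat1, had a ∆RT of just −0.39 at Dzip3, and its second window was not called (adjusted p 0.55). Its 2 cultures gave −0.29 and −0.48. Cip2a, which starts directly beside the start of Dzip3 on the other strand, had a median ∆RT of −0.34 and was called in both windows on 12 deletion alleles.

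The calls of a delay ended within Myh15, which is late on WT alleles. No deletion allele was called later in all 3 of its windows, and 7 were called in at least 1. The ∆RT of the gene lay between −0.35 and 0.15 with a median of −0.08. ∆A.B.COSN123, ∆A.BOSN12.COSN123, ∆BTSS.CTSS and ∆ATSS.BTSS.CTSS were called in the first 2 windows, up to 529.6 kb from ERCE C (8.22%, 12.1%, 12.2% and 28.2% of all windows). In the second, the adjusted p was close to the threshold in ∆A.B.COSN123 (0.049) and ∆A.BOSN12.COSN123 (0.046, limma). With the aggregate WT curve each of these 2 had 8 windows called in place of 9. ∆BOSN12.COSN123, ∆BOSN1.COSN123 and ∆AOSN.B.COSN123 were called in the first alone, up to 479.6 kb (9.12%, 19.1% and 18.1% of all). In ∆A.B.COSN123 the clones had an RT of −0.81 and −0.77 at Myh15, against a WT range of −1.16 to −0.34. The clones of these 7 deletions thus were late at a gene that is late on WT alleles too.

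The shape of the transition itself differed between the deletions. On WT alleles RT fell by 1.71 from window 1 to window 10. In ∆CL20k the fall was 1.22 (1.31 and 1.13 in its clones) and in ∆COSN1 1.65. It was 0.93 in ∆CR14.6k, 0.71 in ∆COSN123 and 0.40 in ∆Z.B.C. In ∆BOSN12.COSN123 it was 0.01. Deletions at all 3 ERCEs did not always give a flat profile, with a fall of 0.33 in ∆AOSN.B.COSN123 and 0.94 in the 1 clone of ∆AOSN.BOSN12.COSN123. The clones of ∆A.B.COSN123 had an RT of −1.01 and −0.91 in window 1 and −0.92 and −0.89 in window 10, so that RT rose by 0.05 on average, and the highest and lowest window differed by 0.28. No WT allele came near such a flat profile, the smallest fall among the 44 being 1.21.

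Sets of deletions were then compared within the same fit, with each set being the mean of its deletions on musculus, so that the strain of the control cancels. Removal of all 3 C OSN sites (∆COSN123, ∆CR13.4k, ∆CR14.6k) was set against partial deletion of C (∆CL20k, ∆COSN1, ∆COSN1.2.8k, ∆CTSS). At Trat1 the sets had a ∆RT of −0.79 and −0.14, at Retnla −0.73 and −0.12, at Dzip3 −0.51 and −0.20 and at Myh15 −0.05 and 0.04. The difference was −0.62 in window 1 (95% interval −0.83 to −0.40, adjusted p 0.0073) and −0.68 in window 2 (−0.92 to −0.45, adjusted p 0.0064). Windows 1 to 3 were called, against 0.0111% of all windows, which is 4 in the whole table. None of the 8 windows of the domain was called in this comparison. All 3 calls were lost without clone 2-12 of ∆CR13.4k or clone 53 of ∆CR14.6k. The mean difference of the 10 windows stayed at −0.37 to −0.32 as clones were left out in turn. The single clones of ∆COSN123, the most delayed of the C set, and of ∆CTSS were not among those left out.

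Adding deletion of A sites to those of C (∆A.COSN123, ∆AOSN.COSN123, ∆Z.AOSN.COSN123) did not give a detectable further delay on the right side. At Trat1 the sets with and without A had a ∆RT of −0.78 and −0.79, and ∆COSN123 alone, on which the former were built, had −1.13. Between the sets, limma called 0 of the 10 windows (0 at an unadjusted p under 0.05, 0% of all windows called), and the difference lay between −0.10 and 0.18. The intervals of the single windows ran from −0.28 to 0.39. In the domain the same sets had −0.53 and −0.36, also with 0 of 8 windows called. Full deletion of A did not differ detectably from that of its OSN site in these genes either. ∆A.COSN123 minus ∆AOSN.COSN123 was −0.00 over the 10 windows and −0.46 in the domain, with 0 windows called in both (0.00256% of all). Over the 10 windows 0 had an unadjusted p under 0.05.

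With B sites deleted beside those of C (∆BOSN12.COSN123, ∆Z.B.C), the set mean was −1.34 at Trat1, −1.09 at Retnla and −0.78 at Dzip3. The C set had −0.79, −0.73 and −0.51, a mean that includes the less delayed ∆CR13.4k and ∆CR14.6k. ∆COSN123 alone, on which ∆BOSN12.COSN123 was built, had −1.13, −0.997 and −0.57, against −1.33, −1.03 and −0.81 in ∆BOSN12.COSN123. This pair is 1 clone each and was not tested. ∆BOSN1.COSN123 had −0.88 at Trat1. The difference of the sets in window 1 was −0.66 (95% interval −0.93 to −0.39, adjusted p 0.033), the only window called of the 10 (0.0384% of all windows). It was lost without clone 2-49 of ∆CR13.4k, either clone of ∆CR14.6k or clone A6 of ∆Z.B.C, and also when all curves were centred on chromosome 16. The intervals excluded 0 in 6 of the 10 windows before adjustment.

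With A and C sites deleted, deletion of the B OSN sites as well (∆A.BOSN12.COSN123, ∆AOSN.BOSN12.COSN123, ∆A.BOSN12.BTSS.COSN123) moved Trat1 from −0.78 to −1.57. Windows 1 and 2 were called, at −0.86 (95% interval −1.08 to −0.63, adjusted p 6.4e-06) and −0.71 (adjusted p 3.6e-04), against 1.02% of all windows. In windows 3 to 5 the differences were −0.39, −0.29 and −0.34, with intervals that excluded 0 but adjusted p of 0.059, 0.17 and 0.079. Against the aggregate WT curve 6 windows were called in place of 2. The sets had −0.62 and −1.01 at Retnla, −0.33 and −0.55 at Dzip3 and −0.10 and −0.06 at Myh15. In the domain all 8 windows were called.

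With full deletion of B in place of its OSN sites (∆A.B.COSN123, ∆AOSN.B.COSN123), windows 1 to 6, from Trat1 to Dzip3, differed from the A and C set (0.161% of all windows called), at −0.74 in window 1 (adjusted p 3.0e-06) and −0.44 in window 6 (adjusted p 0.028), and 3 to 6 windows stayed called as clones were left out in turn. Without clone 2E.1 of ∆A.B.COSN123, 3 windows were called. Set directly against each other, full B deletion and deletion of the B OSN sites did not differ detectably in any of the 10 windows (lowest adjusted p 0.10, 3 windows at an unadjusted p under 0.05, 2.09% of all windows called). The direct difference was 0.11 in window 1 and −0.33 in window 6, with intervals between −0.56 and 0.35. Full B deletion with A and C also differed from the C set in windows 1 and 2 (0.0955% of all windows), by −0.79 and −0.56.

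**Figure D4:**
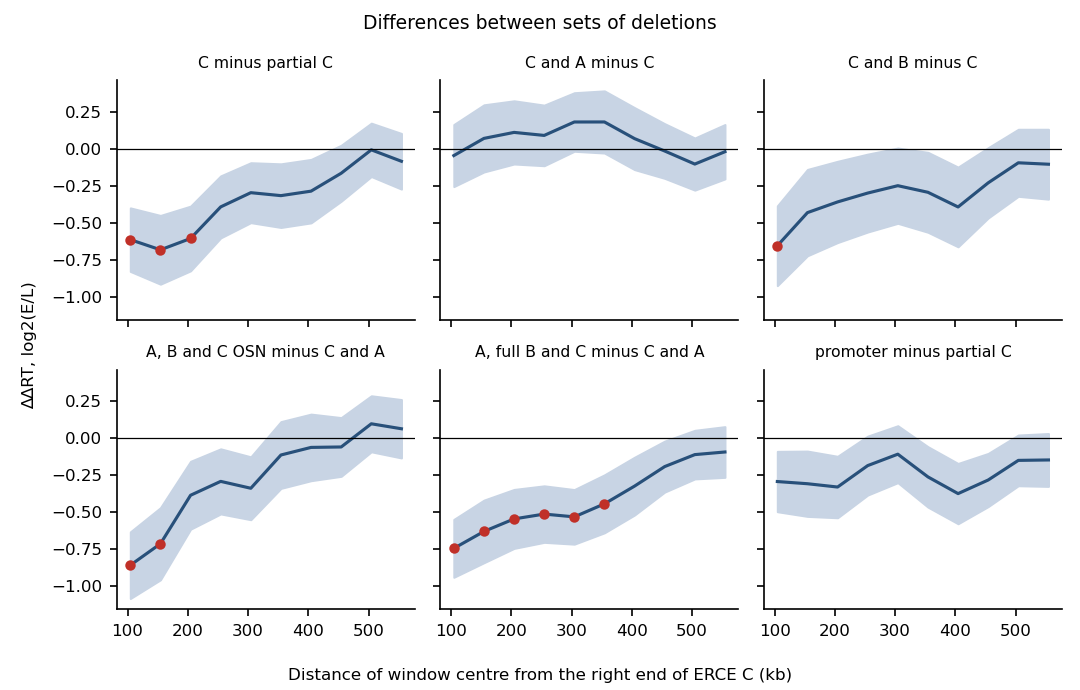
Difference in ∆RT between sets of deletions, log2(E/L), by distance of the window centre from the right end of ERCE C (kb). Lines are the difference of the first set minus the second, bands the 95% interval and red points windows called at an adjusted p under 0.05 (limma). Calls lie in windows 1 to 3 for C minus partial C and reach window 6 for A, full B and C minus C and A.

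Single pairs gave fewer calls. ∆A.B.COSN123 was later than ∆AOSN.B.COSN123 by 0.83 in the domain, where 7 of 8 windows were called. On the right side the difference was −0.46 in window 1 (95% interval −0.75 to −0.16), but 0 of 10 windows passed the adjustment (4 at an unadjusted p under 0.05, 0.0256% of all windows called). ∆COSN123 minus ∆COSN12, which tests removal of COSN3, was −0.26 in window 1 and −0.39 in window 2, and 0 of 10 windows were called (0 at an unadjusted p under 0.05, 0.00512% of all). Its intervals ran from −0.83 to 0.29, since ∆COSN123 is 1 clone.

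In the deletions of several start sites the largest delay lay further from C than Trat1. The same held for ∆CR14.6k and ∆BTSS on CAST (window 4) and ∆CTSS on musculus (window 5), among others. In ∆ATSS.BTSS.CTSS the 3 clones had an RT of 0.24, 0.53 and 0.01 at Trat1, a ∆RT of −0.48 ± 0.26 (SD, n = 3). At Dzip3 they had −0.55, −0.34 and −0.52, a ∆RT of −0.62 ± 0.11 (SD, n = 3). The largest delay was −0.70 in window 4, and 9 windows were called, against 28.2% of all windows, the highest share of any deletion. All 3 clones had the aggregate WT curve as control. With centring on chromosome 16 the mean of the 10 windows was −0.39 in place of −0.49. In ∆BTSS.CTSS the 3 clones had 0.11, 0.45 and 0.26 at Trat1 and −0.28, −0.49 and −0.22 at Dzip3. Their ∆RT was −0.46 and −0.50, with the largest delay, −0.53, in window 6 and 9 windows called (12.2% of all). In the mean of the clones, both deletions thus were delayed at Dzip3 by at least as much as at Trat1, with no test. In contrast, ∆COSN123 had −0.57 at Dzip3 and −1.13 at Trat1. Single clones of both deletions differed in this. Those of ∆ATSS.BTSS.CTSS had a ∆RT of −0.50, −0.21 and −0.73 at Trat1 and −0.70, −0.49 and −0.66 at Dzip3. Those of ∆BTSS.CTSS had −0.63, −0.38 and −0.37 at Trat1 and −0.43, −0.72 and −0.36 at Dzip3. ∆BTSS alone, in 1 clone on each allele, had a ∆RT at Trat1 of −0.38 on musculus and −0.45 on CAST, with no window called (4% and 0.0107% of all). At Dzip3 these were −0.03 and −0.41. The CAST allele was that of clone C11 of ∆BTSS.CTSS, whose musculus allele is among the 3 clones above, and its control was the aggregate WT curve. With the aggregate WT curve, the mean of the 10 windows for ∆BTSS on musculus was −0.28 in place of −0.13 and 2 windows were called. The promoter set (∆BTSS, ∆BTSS.CTSS, ∆ATSS.BTSS.CTSS) minus the partial C set lay between −0.37 and −0.11, and 0 of the 10 windows passed the adjustment (lowest adjusted p 0.059, 6 at an unadjusted p under 0.05, 0.514% of all windows called).

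The delay at Trat1 was set beside that of the 8 windows of the domain, with no test. Of the 30 deletion alleles, 20 had a lower ∆RT at Trat1 than in the mean of the domain. This mean takes in windows at A and B, which lie further from C than Trat1 does. Single windows of the domain near C, and those between the domain and Trat1, were not compared. Whether the delay was larger outside the domain than inside it at a like distance from C was thus not tested. In ∆COSN123 the delay was −0.51 in the domain and −1.13 at Trat1, and the latter was 224% of the former. The same share was 219.6% in ∆CR13.4k and 224.5% in ∆AOSN.COSN123. In ∆COSN12 the mean of the domain was nearly undelayed, at −0.15, beside −0.81 at Trat1, and in ∆CR11.8k these were −0.15 and −0.75. With deletions at all 3 ERCEs the share ran from 91% in ∆A.B.COSN123, whose domain had a ∆RT of −1.82, to 158.6% in ∆AOSN.BOSN12.COSN123. With B and C it was 157.1% in ∆BOSN12.COSN123 and 170.4% in ∆Z.B.C. With A and C it was 99.99% in ∆A.COSN123 and 175.6% in ∆Z.AOSN.COSN123. It was 67.2% in ∆ATSS.BTSS.CTSS and 80.5% in ∆BTSS.CTSS. Most of the alleles without the 3 C OSN sites thus had a lower ∆RT at Trat1, the gene nearest to C, than in the mean of the domain. ∆A.B.COSN123 did not, and ∆A.COSN123 had −0.80 in both. ∆BTSS.CTSS and ∆ATSS.BTSS.CTSS, which keep these sites, were less delayed at Trat1 than in the mean of the domain.

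**Figure D5:**
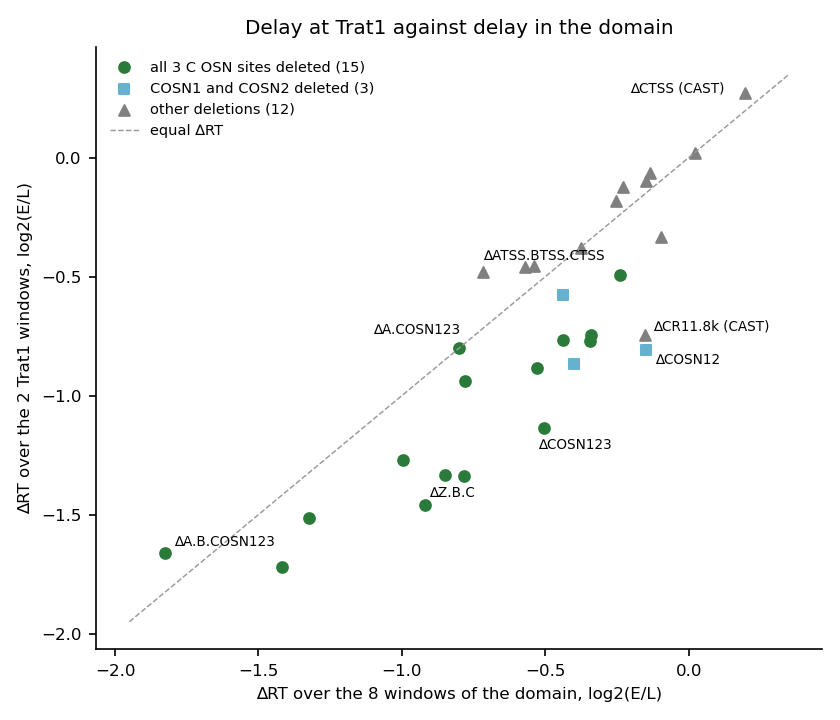
∆RT at Trat1 against the mean ∆RT of the windows of the domain (both log2(E/L)), 1 point per deletion allele. The dashed line marks equal values. Deletions of the C OSN sites (green and blue) lie mostly under the line, by the most in ∆COSN12 and ∆COSN123. Of the other deletions (grey), ∆CR11.8k lies under it, and ∆BTSS.CTSS and ∆ATSS.BTSS.CTSS lie above it.

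The remaining deletions on CAST left these genes near their controls. Those of B and of the A start site were seen in clones whose musculus allele carried other deletions. ∆B on CAST had a ∆RT at Trat1 of −0.47, −0.17, 0.16 and 0.09 in its 4 clones, and ∆ATSS on CAST −0.14, −0.08 and −0.14 in its 3. The clones of ∆B on CAST differed in sign, and no window was called for either (0.53% and 22% of all windows). ∆CTSS on CAST had 0.27 in 1 clone, with no window called (4.03% of all).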

How the data were processed

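The members and the lists of deletions were chosen with earlier results of these data known. Per the study's methods and the labels, the authors trimmed reads (TrimGalore), aligned them to N-masked mm10 (bowtie2), split them by allele (SNPsplit), removed duplicates (Samtools), counted reads in 50 kb windows (bedtools) and deposited log2 values of early over late reads, scaled, quantile-normalized and loess-smoothed over 300 kb. Versions were not given in the sources used here. The table held 138 columns for 66 libraries, with a value in 73.8% to 93.8% of windows. Of 142 samples, 10 (5 libraries) had no column and were not analysed here. Repeat runs and cultures were averaged to 1 value per clone. ∆RT, the deletion minus the control allele, was fitted in limma 3.58.1 (R 4.3.3) with 1 coefficient per deletion allele and 31 residual degrees of freedom, over 39080 windows with a value in at least 80% of clones, two-sided, with Benjamini-Hochberg adjustment over all windows at 0.05. Deletions seen in 1 clone take their spread from the others. Clone SDs measure the spread between these clones. The script was tested on simulated data. Named genes are all protein-coding genes of the interval. COSN1.2.8k clone 18 took the aggregate WT curve. Alternatives changed the control, the replicate unit, the replicate block, the window filter, the centring, the variance model and the clones included. Figures were drawn with matplotlib 3.10.9.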

Additional observations from a re-analysis of the deposited data

Results flagged for a closer look

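Deletion of the C start site went in opposite directions on the 2 alleles. The mean ∆RT of the 10 windows was −0.17 for ∆CTSS on musculus and 0.10 for ∆CTSS on CAST, and both cultures of each clone had the sign of their clone (−0.08 and −0.26 on musculus, 0.10 and 0.11 on CAST). Each allele was seen in 1 clone and set against the other strain, so the difference was not tested, and allele and clone cannot be told apart. At Trat1 the values were −0.18 and 0.27. Among 32 groups of 4 to 10 samples, none held a sample far from the others.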

How the results depend on the processing

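Smoothing over 300 kb, deletions with 1 clone and the few WT musculus alleles limit these results, and depth is unknown. No called mean changed its sign. With WT musculus alleles (n = 2) as control, 9 of the 25 deletion alleles on musculus were called in place of 22, although 24 of the 25 means were below 0 (median SE 0.173 in place of 0.122), and the means moved to −0.14 for ∆COSN12, −0.12 for ∆CR13.4k, −0.18 for ∆CR14.6k and −0.03 for ∆CTSS. With WT CAST alleles as control, chosen after seeing the data, 0 of the 5 on CAST were called in place of 1. With the aggregate WT curve, ∆AOSN.BOSN12.COSN123 moved to −0.89 and ∆COSN1.2.8k to −0.27. As clones were left out in turn, 22 to 23 deletion alleles were called (23 with all) and 3 to 6 of the 11 comparisons of sets (5 with all). Deletions seen in 1 clone were kept in all of these fits. The windows called ranged from 0 to 3 for C minus partial C, 0 to 1 for C and B minus C, 2 to 3 for A, B and C OSN minus C and A, 3 to 6 for A, full B and C minus C and A, 1 to 2 for A, full B and C minus C, and 0 to 1 for promoter minus partial C. The call of C and B minus C was lost (0 windows) with centring on chromosome 16, with no window filter and with libraries as units. For A, B and C OSN minus C and A, the aggregate WT curve gave 6 windows in place of 2. For A, full B and C minus C, 5 windows were called with the aggregate WT curve, 1 without clones that lack a WT allele of their own and 4 with libraries as units. For promoter minus partial C, the aggregate WT curve gave 6 in place of 0. ∆CR14.6k lost its calls without clone 53.

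Replicate numbers recur in 7 deletion alleles with numbered libraries. Same-numbered libraries of different clones did not deviate together (0 of 55 pairs with r over 0.1, −0.21 to 0.08), so the numbers do not pair samples. With the replicate block 5 of these 7 deletion alleles were called, and 5 without it. For ∆A.B.COSN123 minus ∆AOSN.B.COSN123 the replicate block gave 0 windows, as did the fit without it.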
